A study of Mus musculus with 62 samples.

Results

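The transcripts described here are 34 genes of the lysosome, taken from the table by their symbols: 15 subunits of the vacuolar H+-ATPase (V-ATPase), 2 accessory proteins of that pump, 12 lysosomal proteases (9 cysteine cathepsins, together with Ctsa, Ctsd and Lgmn) and 5 lysosomal membrane proteins. All 34 were found among the 47643 genes in the table, and 33 of them passed the filter on low values (at least 1 TPM in at least 5 mice), which Atp6v0d2 did not pass. RNA-seq was done on the diaphragm of 62 female mice. The methods give their age as 2 months when purchased, and diaphragms were taken weeks later, so week after injection and age cannot be told apart. Mice were injected in the flank with a cachectic melanoma (MAST360B, a patient-derived xenograft that induces wasting), with a non-cachectic melanoma (MAST552A, which does not), or with PBS alone (control), and were examined 2, 4, 6 and 8 weeks later, at 5 mice per condition (12 conditions) and 7 for the cachectic group at 8 weeks. The sample labels give the strain as C57BL6/J, whereas the design text and the methods give NCI Ath/nude mice, which lack a thymus and hence mature T cells, and the labels give the 3 groups the same strain, sex and age. Each library came from 1 mouse and each tumor group rests on 1 xenograft, so a difference between the cachectic and the non-cachectic group is also a difference between these tumors.

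Lysosomes break down proteins and organelles that reach them by autophagy or endocytosis, and in muscle they take part in protein loss during wasting beside the ubiquitin-proteasome system. The V-ATPase acidifies the lumen: its cytosolic V1 sector hydrolyses ATP and its membrane V0 sector carries the protons. Cathepsins work in that acid lumen, most of them as cysteine proteases and Ctsd as an aspartic protease, while the glycosylated proteins Lamp1 and Lamp2 line the limiting membrane. The factor TFEB and its relatives bind E-box sites in many lysosomal promoters, and FoxO and STAT factors are known regulators of muscle wasting.

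The promoters (250 bases before to 50 bases after each gene start listed in RefSeq, on GRCm38.p6) were searched on both strands for 4 motifs. There were promoters for 26 of the 34 genes, and none for Atp6v0a2, Atp6v0d2, Atp6v1b2, Atp6v1c1, Atp6v1g1, Atp6v1h, Ctsb and Ctsh. The E-box core CACGTG was found in 11 of these 26 genes and in 8.09% of the 27025 genes with a promoter, and the longer form TCACGTGA, which contains the core, in 6 of 26 and in 1.12% of all genes. The STAT motif TTCCNGGAA was found in 0 of 26 (1.35% of all genes) and the FoxO motif GTAAACA in 0 of 26 (4.05% of all genes). The 5 promoters below are examples. Cd63 and Ctsl were picked because they are among the members with the smallest p-values below, and Ctsd, Mcoln1 and Atp6v1a because they hold TCACGTGA. Whether genes with an E-box changed differently from the others was not tested. Capitals mark the E-boxes, and the sequences run 5′ to 3′ on the strand of the gene.

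Cd63, chr10:128909095-128909394, plus strand: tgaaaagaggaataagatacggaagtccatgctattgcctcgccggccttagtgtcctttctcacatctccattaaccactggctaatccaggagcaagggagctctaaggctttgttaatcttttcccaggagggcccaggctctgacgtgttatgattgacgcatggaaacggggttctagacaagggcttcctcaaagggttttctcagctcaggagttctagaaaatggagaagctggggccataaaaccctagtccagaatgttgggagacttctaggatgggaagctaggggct

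Ctsl, chr13:64370471-64370770, minus strand: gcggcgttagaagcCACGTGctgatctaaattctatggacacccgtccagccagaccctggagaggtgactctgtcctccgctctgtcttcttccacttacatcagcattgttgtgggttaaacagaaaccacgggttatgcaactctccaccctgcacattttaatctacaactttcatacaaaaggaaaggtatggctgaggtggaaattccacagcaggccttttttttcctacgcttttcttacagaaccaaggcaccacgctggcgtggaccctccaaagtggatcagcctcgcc

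Ctsd, chr7:142387778-142388077, minus strand: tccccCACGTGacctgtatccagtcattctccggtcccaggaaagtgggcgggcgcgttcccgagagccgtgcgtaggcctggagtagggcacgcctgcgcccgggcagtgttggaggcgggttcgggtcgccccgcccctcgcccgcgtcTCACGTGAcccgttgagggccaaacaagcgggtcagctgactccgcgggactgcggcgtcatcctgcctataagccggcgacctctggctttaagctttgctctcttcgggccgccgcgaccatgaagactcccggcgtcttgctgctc

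Mcoln1, chr8:3500269-3500568, plus strand: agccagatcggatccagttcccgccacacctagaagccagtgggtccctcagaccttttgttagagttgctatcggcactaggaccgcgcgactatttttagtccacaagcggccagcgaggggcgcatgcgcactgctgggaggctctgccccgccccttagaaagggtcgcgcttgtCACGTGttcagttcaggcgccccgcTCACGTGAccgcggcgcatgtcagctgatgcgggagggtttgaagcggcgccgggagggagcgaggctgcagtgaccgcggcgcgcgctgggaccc

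Atp6v1a, chr16:44139210-44139509, minus strand: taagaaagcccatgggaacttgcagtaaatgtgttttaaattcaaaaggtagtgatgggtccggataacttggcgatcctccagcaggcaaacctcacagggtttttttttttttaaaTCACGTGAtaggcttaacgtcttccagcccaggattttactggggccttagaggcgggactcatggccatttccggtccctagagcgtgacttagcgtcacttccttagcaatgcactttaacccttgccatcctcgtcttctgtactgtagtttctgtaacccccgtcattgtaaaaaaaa

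In the window searched, the promoter of Cd63 held none of the 4 motifs, and that of Ctsl held 1 core E-box, starting at base 15 of the 300. The GENCODE annotation starts Cd63 at chr10:128900989, and Ctsl and Atp6v1a at chr13:64370890 and chr16:44139705. Their RefSeq windows therefore lie inside these genes, and the sequence at the outer starts was not searched. The same holds for Atp6v0a1, Atp6v0e and Scarb2. The 6 genes with the long form were Atp6v0d1, Atp6v0e, Atp6v1a, Ctsa, Ctsd and Mcoln1. The other genes with a core E-box were Atp6v0b, Ctsf, Lamp1 and Lgmn. A match is only a match of letters in this window.

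Levels are given in TPM, which are per length and scaled to the library, so levels of different genes can be compared. Over the 62 mice, the highest median levels were those of Ctsd (519 TPM) and Lamp1 (493 TPM), followed by Ctsl (171 TPM), Cd63 (167 TPM), Ctsb (150.1 TPM) and Atp6v1g1 (138 TPM). The lowest medians among the 33 tested genes were those of Atp6v1h (4.46 TPM), Ctso (6.89 TPM), Ctsc (8.23 TPM) and Ctsk (9.40 TPM). In this order of medians the ranges of neighbouring genes overlapped, except between Atp6v0d2 and Atp6v1h and between Atp6v1d and Atp6v1g1. Atp6v1h, the regulatory H subunit of V1, was thus the scarcest of the 8 measured V1 subunits, while Atp6v1g1, a subunit of the peripheral stalk, was the most abundant. Atp6v0d2, the form of subunit d known from osteoclasts and some macrophages, had a median of 0.0722 TPM, was listed at 0 in 8 mice and reached 1 TPM in 3 mice, all of them controls at 2 weeks (2.91, 1.33 and 1.41 TPM). The same 3 libraries had the highest summed TPM of 10 liver markers in that group (24677, 11740 and 8870 TPM, against 8.09 and 94.1 TPM in the other 2 control mice); the part of these cells in the values of Atp6v0d2 was not tested.

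The summed level of 10 muscle fiber markers (Acta1, Ckm and others) was 51166 to 104416 TPM in every library, and 4 melanocyte markers summed to at most 0.995 TPM. Each library listed 15069 to 19057 genes above 0, and 4 libraries stood apart with the fewest genes, 3 of them from mice with a tumor at 2 weeks (2 cachectic and 1 non-cachectic) and the fourth being replicate 3 of the cachectic group at 8 weeks. In that last library mitochondrially encoded genes took 57.1% of the TPM, against 32.5% to 41.6% in the other 6 cachectic mice at 8 weeks, and it was the lowest of the 7 mice for 23 of the 33 tested genes. Among the controls, mitochondrial shares were 44.9 to 47.9% at 6 weeks and 40.9 to 49.3% at 8 weeks. In cachectic mice at 6 weeks they were 34.3 to 44.9%.

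To learn when the lysosomal transcripts departed from control levels, cachectic and control mice were compared at each week with limma on log2(TPM + 1), with Benjamini-Hochberg adjustment over all 13578 tested genes; a gene was called at an adjusted p under 0.05. Of 33 genes, 0 were called at 4 weeks, 8 rose at 6 weeks and 7 rose at 8 weeks. At 6 weeks these were Cd63, Atp6v1h, Ctsl, Lamp2, Ctsc, Lgmn, Ctso and Atp6v1d, and at 8 weeks Cd63, Atp6v1h, Atp6v1d, Ctsl, Atp6v1g1, Lamp2 and Ctss. Of all genes tested, 5.62% were higher and 1.17% lower at 6 weeks, and 6.65% were higher and 8.12% lower at 8 weeks, while 0 of the 33 were lower at either week. The share of the 33 called was 24.2% at 6 weeks and 21.2% at 8 weeks. Bulk RNA cannot tell more cells of a type from more RNA per cell.

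**Figure D1:**
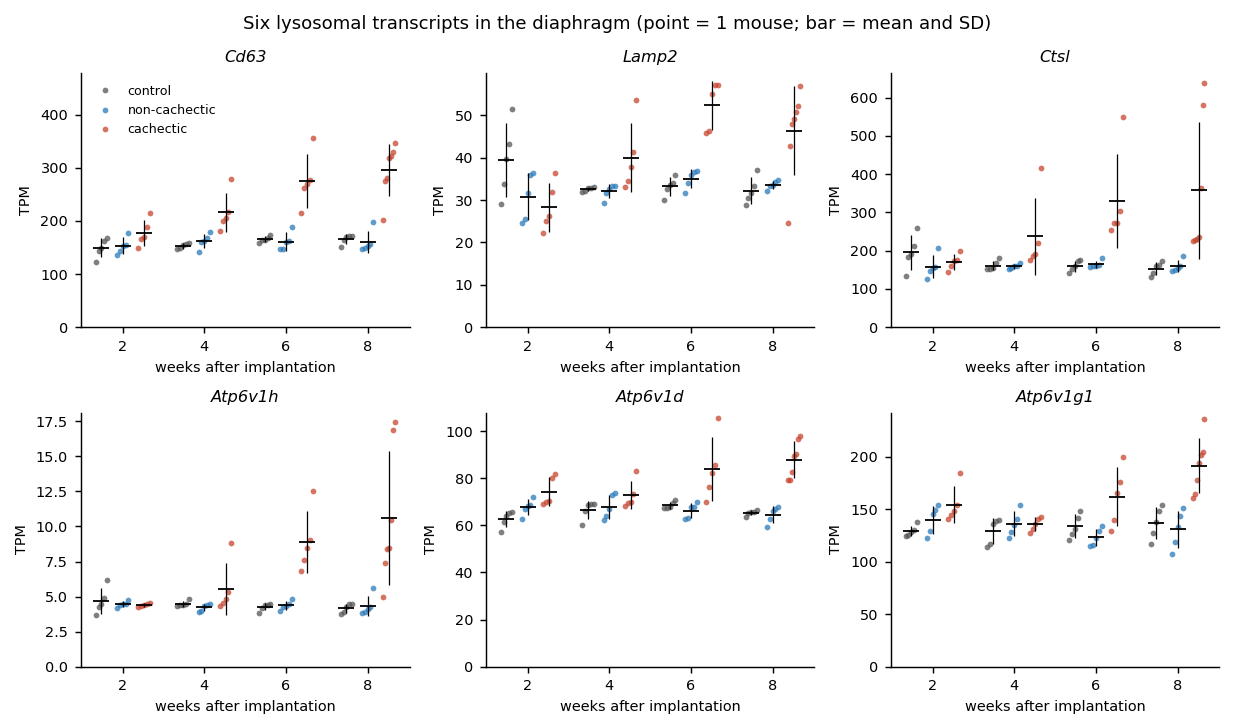
TPM (y axis) of Cd63, Lamp2, Ctsl, Atp6v1h, Atp6v1d and Atp6v1g1 against weeks after implantation (x axis) in control, non-cachectic and cachectic mice; each point is 1 mouse, and bars give the mean and SD. At 8 weeks all 7 cachectic mice lay above all 5 controls for Cd63, Ctsl, Atp6v1h, Atp6v1d and Atp6v1g1, and 1 cachectic mouse had the lowest Lamp2 value (24.6 TPM).

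Cd63, a tetraspanin of late endosomes, lysosomes and exosomes, had the smallest adjusted p of the 33 genes at both weeks. At 6 weeks the controls had 158, 164, 165, 167 and 173 TPM, the non-cachectic mice 147, 147, 160.0, 162 and 189.6 TPM and the cachectic mice 215, 262, 270.2, 276 and 356 TPM. Every cachectic mouse was above every mouse of the other 2 groups. The log2 fold change over controls was 0.71 ± 0.12 (SE), adjusted p = 2.95e-05 (n = 5 and 5, limma). By 8 weeks values were 150.4, 164, 171, 171 and 172 TPM in controls and, in non-cachectic mice, 147, 148, 153, 157 and 198 TPM, and the lowest, median and highest of the cachectic mice were 202, 318 and 347 TPM. The groups again did not overlap, with a log2 fold change of 0.82 ± 0.11 (SE), adjusted p = 2.42e-07 (n = 7 and 5, limma), which is 1.76-fold. At 4 weeks the cachectic mice had 181, 199.8, 205, 217 and 278 TPM and the controls 147, 149, 154, 156 and 159 TPM, without overlap. The difference of log2 0.48 ± 0.12 (SE) was not called (adjusted p = 0.099, limma). The named pseudogene Cd63-ps was listed at 0 in these groups at 6 and 8 weeks.

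Lamp2, a membrane protein needed for fusion of autophagosomes with lysosomes and, as one isoform, for chaperone-mediated autophagy, rose at both weeks. At 6 weeks the controls had 30.0, 32.7, 33.5, 33.9 and 36.0 TPM and the cachectic mice 45.8, 46.4, 55.0, 57.2 and 57.2 TPM, without overlap (log2 0.64 ± 0.14 (SE), adjusted p = 0.00273, limma). Controls had 28.8, 30.4, 31.7, 33.3 and 37.0 TPM at 8 weeks and the lowest, median and highest of the cachectic mice were 24.6, 49.2 and 56.9 TPM (log2 0.48 ± 0.13 (SE), adjusted p = 0.00871, limma). The single cachectic value under the controls came from replicate 3, the library with few genes. Without it the log2 fold change at 8 weeks was 0.62 (adjusted p = 4.22e-05, limma).

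Lamp1, the most abundant of the 5 membrane proteins, had 462 to 508 TPM in controls and 614 to 821 TPM in cachectic mice at 6 weeks. No cachectic value reached down to the controls, yet the difference was not called (log2 0.55 ± 0.23 (SE), adjusted p = 0.156, limma). Without the 4 libraries with the fewest genes, all from 2 or 8 weeks, it was called at the same log2 0.55 (adjusted p = 3.21e-07, limma). At 8 weeks the lowest, median and highest were 467, 510.4 and 559 TPM in controls and 172, 693 and 862 TPM in cachectic mice (log2 0.23 ± 0.22 (SE), adjusted p = 0.544, limma). The lowest value was that of replicate 3, and without it the log2 fold change was 0.52 with an adjusted p of 0.012 by limma. Grtp1 overlaps exons of Lamp1 on the other strand and reached at most 12.2 TPM in cachectic and 14.6 TPM in control mice at 8 weeks. Mcoln1, a calcium channel of the lysosomal membrane, and Scarb2, a receptor that carries glucocerebrosidase to lysosomes, were not called at either week. Mcoln1 differed from controls by log2 0.28 ± 0.25 (SE), adjusted p = 0.572 at 6 weeks and -0.094 ± 0.23 (SE), adjusted p = 0.845 at 8 weeks (limma). The sign at 8 weeks turned without replicate 3, where the value was 0.21 (adjusted p = 0.469, limma).

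Of the 15 pump subunits 14 were tested. In V1, Atp6v1h and Atp6v1d rose at 6 weeks, and Atp6v1h, Atp6v1d and Atp6v1g1 at 8 weeks, out of 8 subunits. In V0, 0 of 6 tested subunits were called over controls by limma at either week, with 0 at an unadjusted p under 0.05 at 6 weeks and 1 (Atp6v0e) at 8 weeks. Of the 2 accessory proteins 0 were called, with 1 (Atp6ap2) and 0 at an unadjusted p under 0.05. At that threshold 16.6% of all genes were higher and 3.51% lower at 6 weeks, and 10.6% were higher and 16.4% lower at 8 weeks. Whether V0 and V1 differ was not tested. Dunn's test on ranks called 0 genes at 6 weeks and, of the 33, Atp6v1h, Atp6v1d and Ctsl at 8 weeks, all higher (2.14% of all genes were higher and 6.12% lower by that test).

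Atp6v1h showed the largest rise of the pump subunits. At 6 weeks the controls had 3.85, 4.19, 4.38, 4.41 and 4.48 TPM, the non-cachectic mice 3.99, 4.23, 4.3, 4.5 and 4.84 TPM and the cachectic mice 6.8, 7.58, 8.45, 9.02 and 12.5 TPM, without overlap. The log2 fold change over controls was 0.88 ± 0.17 (SE), adjusted p = 0.000344 (limma). At 8 weeks the controls had 3.73, 3.9, 4.24, 4.46 and 4.46 TPM and the non-cachectic mice 3.79, 3.9, 4.12, 4.27 and 5.57 TPM, and the lowest, median and highest of the cachectic mice were 4.98, 8.49 and 17.4 TPM. The cachectic mice were above every control, though the lowest of them (replicate 3) was below the highest non-cachectic mouse. The log2 fold change over controls was 1.07 ± 0.15 (SE), adjusted p = 1.3e-06, that is 2.09-fold (limma). The gene lies on chr1:5070018-5162529 (GRCm38, plus strand), and Rgs20 overlaps its exons on the other strand. Rgs20 reached at most 0.0913 TPM in the groups at 6 and 8 weeks.

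Since V1 is assembled from fixed numbers of subunits, Atp6v1h was also set against the median of the other 7 V1 subunits within each library, a ratio chosen after the values were seen and given without a test. At 6 weeks its lowest, median and highest were 0.0836, 0.0949 and 0.0984 in controls and 0.142, 0.186 and 0.239 in cachectic mice. At 8 weeks they were 0.0847, 0.0883 and 0.0979 in controls and 0.0738, 0.188 and 0.373 in cachectic mice. The groups did not overlap at 6 weeks. At 8 weeks 1 cachectic mouse (replicate 3) fell under the controls. The ratio does not depend on the scaling of the library.

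**Figure D2:**
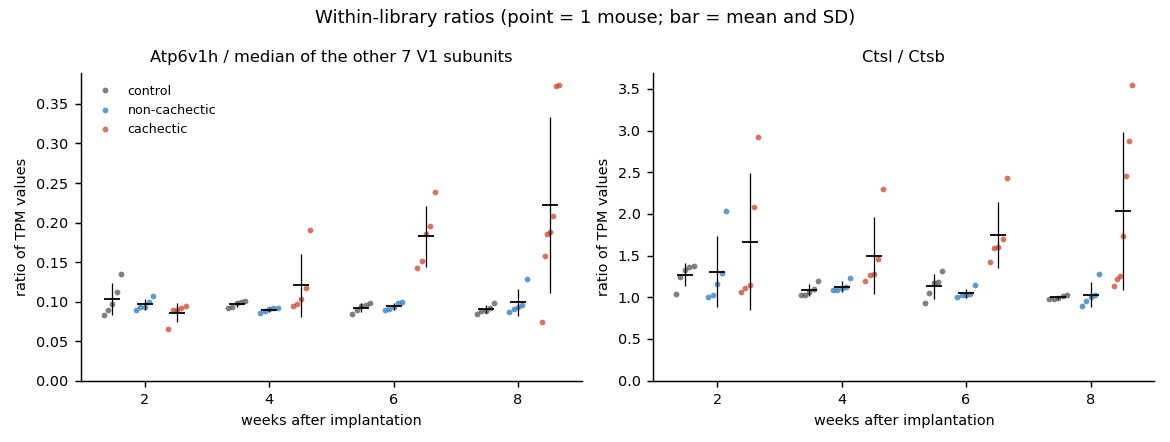
Within-library ratios of TPM values (y axes) against weeks after implantation (x axes): Atp6v1h over the median of the other 7 V1 subunits, and Ctsl over Ctsb. Each point is 1 mouse and bars give the mean and SD; at 8 weeks the median of the first ratio was 0.188 in cachectic and 0.0883 in control mice, and both ratios spread widely among the 7 cachectic mice.

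Atp6v1d, a subunit of the central stalk that turns in the pump, rose by less than Atp6v1h at both weeks. At 8 weeks the controls had 63.7, 65.3, 65.6, 65.9 and 66.7 TPM and the lowest, median and highest of the cachectic mice were 79.3, 89.5 and 97.8 TPM, without overlap (log2 0.42 ± 0.071 (SE), adjusted p = 2.8e-05, limma). At 6 weeks the controls had 67.2, 67.3, 67.8, 69.4 and 70.9 TPM and the cachectic mice 70.0, 76.5, 82.2, 85.6 and 106 TPM, with overlap (log2 0.28 ± 0.077 (SE), adjusted p = 0.0186, limma). The call at 6 weeks was lost under median-ratio scaling between libraries (log2 0.092, adjusted p = 0.844) and without cachectic replicate 1 (adjusted p = 0.176, limma).

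Atp6v1g1 had 117, 128, 138, 148 and 154 TPM in controls at 8 weeks, and a lowest, median and highest of 160.5, 194 and 236 TPM in cachectic mice. The groups did not overlap (log2 0.48 ± 0.095 (SE), adjusted p = 0.000227, limma). At 6 weeks they did, with 121, 126, 131, 142 and 149 TPM in controls and 129, 139, 166, 176 and 199 TPM in cachectic mice, and the gene was not called (log2 0.26 ± 0.10 (SE), adjusted p = 0.115, limma).

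The catalytic subunit Atp6v1a and its partner Atp6v1b2, which form the ATP-hydrolysing ring, were not called at either week. Atp6v1a ranged over 8.95 to 13.4 TPM in controls and 7.34 to 14.7 TPM in cachectic mice at 8 weeks (log2 0.15 ± 0.11 (SE), adjusted p = 0.411, limma). Atp6v1b2 ranged over 22.7 to 27.9 TPM and 12.2 to 30.4 TPM (log2 -0.057 ± 0.15 (SE), adjusted p = 0.854), and its sign turned under 5 of the other ways of processing and without cachectic replicate 3. At 6 weeks the log2 fold changes were 0.22 ± 0.12 (SE) and 0.21 ± 0.16 (SE), with adjusted p-values of 0.323 and 0.477 (limma). In V0, Atp6v0c, the proteolipid of the rotating ring, had 38.3 to 46.3 TPM in controls and 24.0 to 66.6 TPM in cachectic mice at 8 weeks (log2 0.24 ± 0.15 (SE), adjusted p = 0.338, limma). Atp6v0c was called without cachectic replicate 3 (log2 0.41, adjusted p = 0.016, limma) and under median-ratio scaling (log2 0.34, adjusted p = 0.00376, limma). Atp6v0d1, the widely expressed form of subunit d, had 31.7 to 35.3 TPM in controls and 37.4 to 56.4 TPM in cachectic mice at 6 weeks without overlap, and was not called (log2 0.40 ± 0.21 (SE), adjusted p = 0.281, limma). At 8 weeks its difference was log2 0.16 ± 0.20 (SE), adjusted p = 0.643 (limma). Without cachectic replicate 3 the difference of Atp6v0d1 was log2 0.39 and not called (adjusted p = 0.0778, limma). Under median-ratio scaling it was called (log2 0.27, adjusted p = 0.00969, limma). Atp6ap2, the (pro)renin receptor that serves in assembly of the pump, differed by log2 0.34 ± 0.13 (SE), adjusted p = 0.0926 at 6 weeks and 0.094 ± 0.12 (SE), adjusted p = 0.657 at 8 weeks (limma). Atp6v0d2 stayed at or under 0.571 TPM in every mouse at 6 and 8 weeks.

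**Figure D3:**
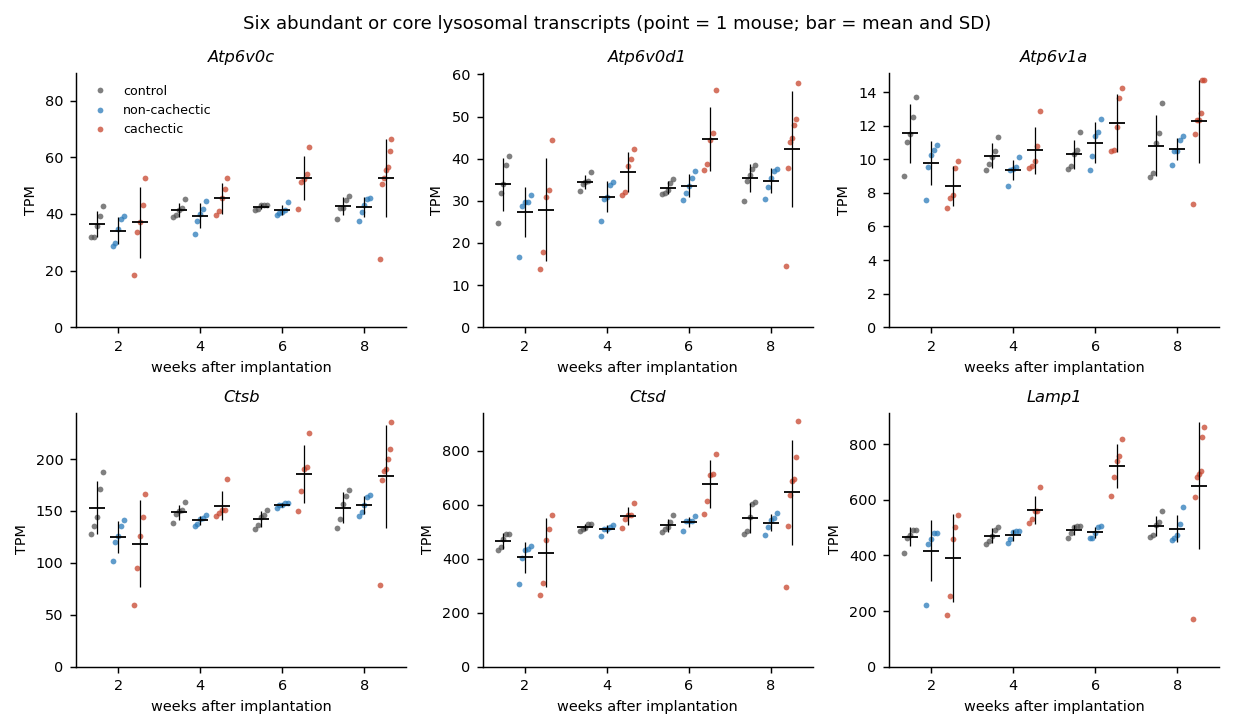
TPM (y axis) of Atp6v0c, Atp6v0d1, Atp6v1a, Ctsb, Ctsd and Lamp1 against weeks after implantation (x axis) in the 3 groups; points are mice, and bars give the mean and SD. At 8 weeks 1 cachectic mouse lay far under the others for most of these genes (Lamp1, 172 TPM), and the remaining cachectic mice overlapped with or lay above the controls.

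Of the 12 proteases, Ctsl, Ctsc, Ctso and Lgmn rose at 6 weeks, and Ctsl and Ctss at 8 weeks. Ctsl, an endopeptidase known as a transcript that rises in many forms of muscle atrophy, had 141, 152, 159, 173 and 174 TPM in controls, 156, 159, 161, 163 and 180.4 TPM in non-cachectic and 255, 271, 273, 303 and 548 TPM in cachectic mice at 6 weeks. The log2 fold change over controls was 0.98 ± 0.21 (SE), adjusted p = 0.00172 (limma). Controls at 8 weeks had 130.4, 141, 159, 162 and 174 TPM and the non-cachectic mice 148, 149, 155, 159.8 and 186 TPM, and the lowest, median and highest of the cachectic mice were 226, 236 and 638 TPM. Cachectic mice did not overlap with the other groups at either week, and replicates 1 and 6 at 8 weeks (638 and 579 TPM) stood far above the rest. The log2 fold change over controls was 1.08 ± 0.19 (SE), adjusted p = 5.85e-05, or 2.12-fold (limma). An antisense gene and a processed pseudogene overlap exons of Ctsl (chr13:64359337-64370890, minus strand) and are not in the table, so its reads cannot be told from theirs.

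The ratio of Ctsl to Ctsb within a library, also chosen after the values were seen, had a lowest, median and highest of 0.977, 0.994 and 1.02 in controls and 1.13, 1.74 and 3.55 in cachectic mice at 8 weeks, without overlap. At 6 weeks the values were 0.933, 1.16 and 1.31 in controls and 1.42, 1.6 and 2.43 in cachectic mice. High ratios were also seen in the 4 libraries with the fewest genes, which had 2.08, 2.92, 2.04 and 2.88 (cachectic replicates 3 and 4 and non-cachectic replicate 5 of week 2, then cachectic replicate 3 of week 8), and the part of library quality in the ratio was not tested. Ctsb, which acts as an endopeptidase and a peptidyl-dipeptidase, itself had a lowest, median and highest of 133, 156 and 169.9 TPM in controls and 79.0, 190.4 and 236 TPM in cachectic mice at 8 weeks (log2 0.20 ± 0.16 (SE), adjusted p = 0.464, limma), and differed by log2 0.37 ± 0.17 (SE), adjusted p = 0.208 at 6 weeks. Fdft1 overlaps exons of Ctsb on the other strand. It had 14.4 to 148 TPM in cachectic mice and 35.6 to 46.2 TPM in controls at 8 weeks. The part of its reads in the values of Ctsb and in the ratio was not tested. Ctsd, the main aspartic protease of lysosomes, had 498 to 559.8 TPM in controls and 564 to 789 TPM in cachectic mice at 6 weeks, without overlap and without a call (log2 0.36 ± 0.16 (SE), adjusted p = 0.172, limma). At 8 weeks the difference of Ctsd was log2 0.16 ± 0.15 (SE), adjusted p = 0.525 (limma). The gene Gm49369 overlaps exons of Ctsd on the same strand and has no TPM values here. Without cachectic replicate 3, Ctsb and Ctsd were called at 8 weeks, with log2 fold changes of 0.39 (adjusted p = 0.0266) and 0.33 (adjusted p = 0.0365) by limma.

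Lgmn, an asparaginyl endopeptidase that matures other cathepsins, had 33.1, 37.4, 39.6, 43.2 and 47.9 TPM in controls and 52.6, 66.6, 69.0, 75.3 and 80.3 TPM in cachectic mice at 6 weeks (log2 0.75 ± 0.19 (SE), adjusted p = 0.00991, limma). At 8 weeks 5 of the 7 cachectic mice had 69.3 TPM or more and the highest control had 53.6 TPM. The remaining cachectic mice had 21.9 TPM (replicate 3) and 44.7 TPM (replicate 1), and the difference was not called (log2 0.36 ± 0.18 (SE), adjusted p = 0.19, limma). Without replicate 3 it was 0.58 (adjusted p = 0.00168). Ctso, a little-studied cysteine protease, had 5.93, 5.98, 6.6, 6.9 and 6.92 TPM in controls and 8.36, 8.43, 8.44, 9.59 and 10.8 TPM in cachectic mice at 6 weeks, without overlap (log2 0.43 ± 0.14 (SE), adjusted p = 0.0394, limma), but this call was lost without cachectic replicate 1, 2 or 4 (adjusted p = 0.159, 0.0852 and 0.0521, limma) and without control replicate 1, 2, 4 or 5 (0.0626, 0.0948, 0.0979 and 0.0587). Under median-ratio scaling it was also lost (log2 0.27, adjusted p = 0.291). At 8 weeks Ctso differed by log2 0.31 ± 0.13 (SE), adjusted p = 0.0966 (limma). Ctsk, the collagen-degrading cathepsin of osteoclasts and fibroblasts, had a lowest, median and highest of 5.31, 9.25 and 10.6 TPM in controls and 4.83, 6.17 and 16.2 TPM in cachectic mice at 8 weeks (log2 -0.25 ± 0.21 (SE), adjusted p = 0.488, limma). At 6 weeks its difference was 0.25 ± 0.23 (SE), adjusted p = 0.586 (limma). In none of the comparisons at these weeks were Ctsa, Ctsf, Ctsh or Ctsz called.

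Ctss and Ctsc are cathepsins of leukocytes, Ctss of antigen-presenting cells and Ctsc of granule protease maturation. Ctss had 16.6, 17.3, 17.4, 23.4 and 23.7 TPM in controls and 11.6, 12.98, 21.4, 29.5 and 45.2 TPM in non-cachectic mice at 8 weeks, and a lowest, median and highest of 21.8, 42.5 and 119 TPM in cachectic mice. The groups overlapped, and the spread among cachectic mice was wide (log2 1.16 ± 0.40 (SE), adjusted p = 0.0388, limma). This call was lost without cachectic replicate 2, 3 or 5 (adjusted p = 0.0972, 0.0958 and 0.0508, limma) and without any 1 of the 5 controls (0.0522 to 0.0887). At 6 weeks Ctss had 15.1, 18.03, 23.0, 23.8 and 25.5 TPM in controls and 26.9, 28.4, 29.5, 31.0 and 39.1 TPM in cachectic mice, without overlap and without a call (log2 0.55 ± 0.43 (SE), adjusted p = 0.51, limma). Ctsc had 6.63, 6.87, 6.88, 6.99 and 7.86 TPM in controls and 9.93, 9.94, 11.5, 11.7 and 14.1 TPM in cachectic mice at 6 weeks (log2 0.62 ± 0.16 (SE), adjusted p = 0.00957, limma), and overlapped at 8 weeks (log2 0.27 ± 0.15 (SE), adjusted p = 0.233). The call of Ctsc at 6 weeks was lost under median-ratio scaling (log2 0.45, adjusted p = 0.232).

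Macrophages are rich in lysosomes, so their markers were counted beside these genes. Of 14 macrophage markers, 13 were in the table (Itgam was not used here). Of these, 4 were higher in cachectic than in control mice at 6 weeks and 6 at 8 weeks, 0 were lower, and all 13 were above 0 in every mouse. Of all genes tested, 5.62% were higher at 6 weeks and 6.65% at 8 weeks. The lowest medians of the 13 were those of Cx3cr1 (0.655 TPM) and Fcgr1 (0.766 TPM). Cd163, a scavenger receptor of resident macrophages, differed by log2 1.49 ± 0.27 (SE) at 8 weeks (adjusted p = 7.76e-05, limma), and C1qa by 0.93 ± 0.27 (SE) (adjusted p = 0.0141, limma). The summed level of the 13 markers was 150.0 to 235 TPM in controls and 226 to 447 TPM in cachectic mice at 6 weeks, and 154 to 253 and 198 to 589 TPM at 8 weeks. Of 4 neutrophil markers tested, 2 were higher at 8 weeks and 0 at 6 weeks, beside the same shares of all genes. The part of these cells in the lysosomal transcripts was not tested. Replicates 1 and 2 of the cachectic mice at 8 weeks were picked after the values were seen, and the other cachectic mice are not listed here. Among the 7 cachectic mice, replicate 1 at 8 weeks had the highest Ctsl (638 TPM), an Atp6v1h of 16.9 TPM, and a macrophage marker sum of 198 TPM, inside the range of the controls. Its Ctss was 21.8 TPM, also inside that range. Replicate 2 had the highest marker sum (589 TPM) with a Ctss of 83.3 TPM and a Ctsl of 365 TPM.

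**Figure D4:**
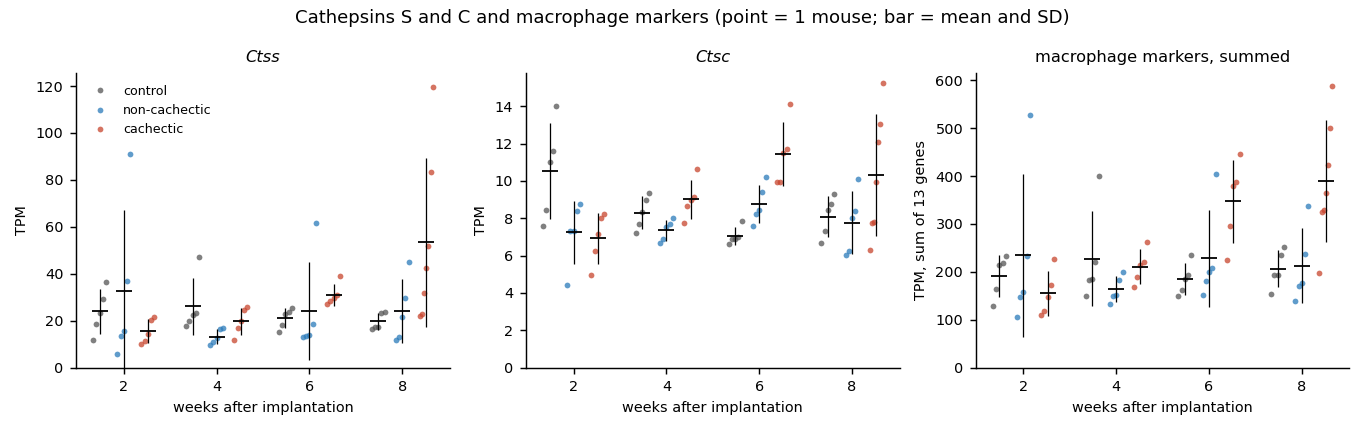
TPM of Ctss and Ctsc and the summed TPM of 13 macrophage markers (y axes) against weeks after implantation (x axes) in the 3 groups; points are mice, and bars give the mean and SD. At 8 weeks the marker sum was 198 to 589 TPM in cachectic and 154 to 253 TPM in control mice, with overlap for all 3 measures.

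The direction of small differences depended on the scaling of the libraries. At 6 weeks 33 of 33 log2 fold changes over controls were positive, with a median of 0.29 on the log2 scale, but the median of all 13578 genes was itself 0.17. After median-ratio scaling the medians were 0.11 for the 33 genes and 0.015 for all genes, and 30 of 33 were positive. At 8 weeks 24 of 33 were positive, with a median of 0.20 against -0.094 for all genes, and after median-ratio scaling 27 of 33 were positive with medians of 0.31 and -0.026. Every cachectic mouse was above every control for 14 of the 33 genes at 6 weeks and 5 at 8 weeks, where 15.9% and 2.52% of all tested genes were so. Without the 4 libraries that list the fewest genes, 21 of 33 genes were called at 6 weeks (27.0% of all genes were higher) and 20 at 8 weeks (22.3% of all genes higher), 0 of them lower. The genes called then at 8 weeks included Lamp1 (log2 0.52, adjusted p = 1.25e-07), Atp6v0c (0.41, 0.00026), Atp6v0d1 (0.39, 0.00226) and Lgmn (0.58, 0.000112). At 6 weeks they included Lamp1 (log2 0.55, adjusted p = 3.21e-07), Ctsd (0.36, 0.000942), Ctsb (0.37, 0.00111) and Atp6v0d1 (0.40, 0.00385). Atp6v1a, Ctss and Ctsk were still not called at 6 weeks (adjusted p = 0.0884, 0.261 and 0.426, limma).

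**Figure D5:**
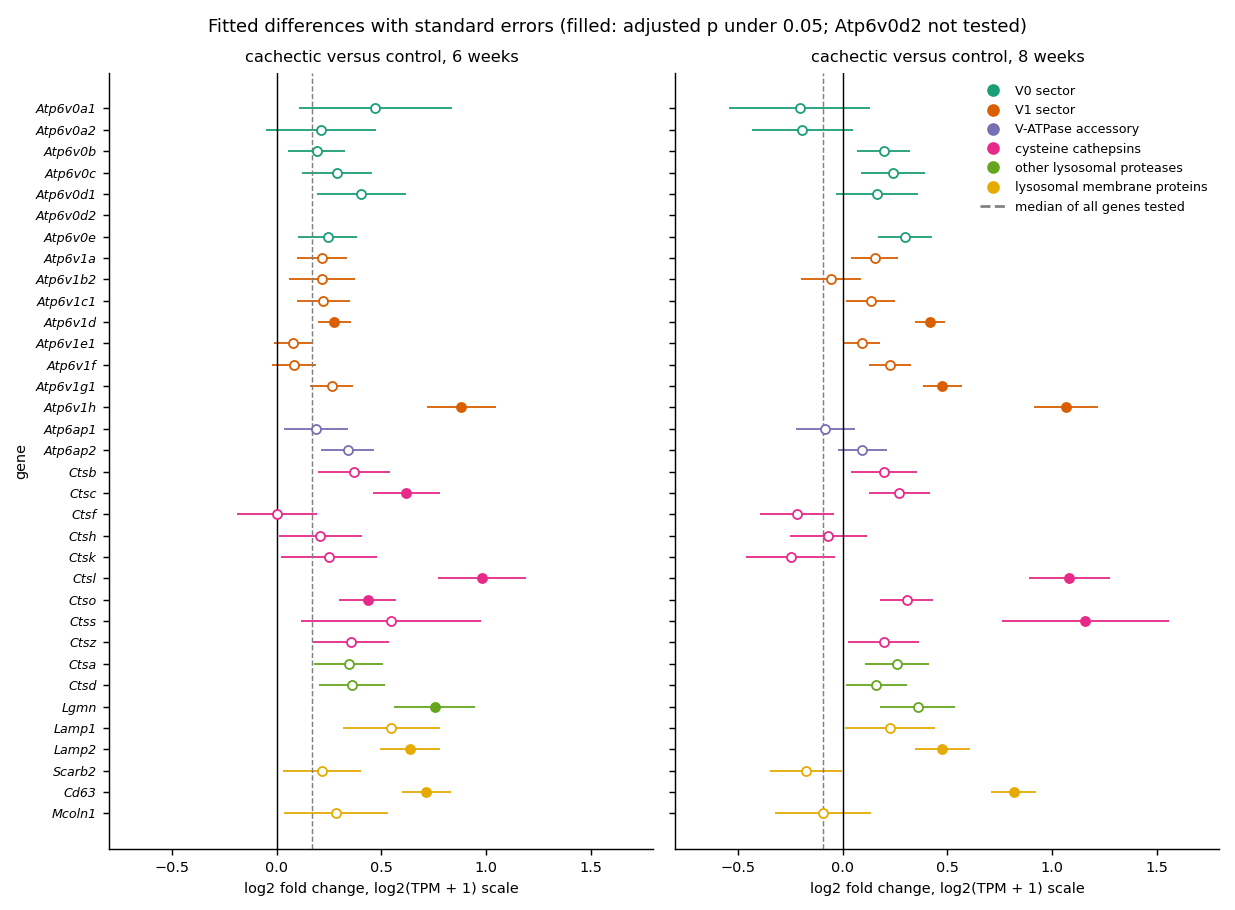
Log2 fold change with its standard error (x axis, log2(TPM + 1) scale) of the 33 tested genes (y axis, coloured by role) in cachectic versus control mice at 6 and 8 weeks; filled points passed an adjusted p of 0.05. All points lie right of 0 at 6 weeks, where the dashed median of all genes is at 0.17, and Cd63, Ctsl, Atp6v1h and Ctss lie farthest right at 8 weeks, where that median is at -0.094.

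Comparison with the non-cachectic melanoma asks whether the values differ between mice that all bear a tumor. Comparisons of cachectic mice with the 2 other groups share the cachectic mice, so their values are given side by side and not as independent tests. Cachectic mice had 6 genes higher than non-cachectic mice at 6 weeks (4.28% of all genes were higher and 1.57% lower) and 7 at 8 weeks (6.75% higher, 6.19% lower), with 0 lower. At 6 weeks these were Cd63, Atp6v1h, Ctsl, Atp6v1d, Lamp2 and Atp6v1g1. At 8 weeks the same 6 genes were called together with Atp6v0e, a small V0 subunit, at an adjusted p of 0.04996. The log2 fold changes over non-cachectic mice at 8 weeks were 0.87 ± 0.11 (SE) for Cd63 (adjusted p = 7.28e-08), 1.03 ± 0.15 (SE) for Atp6v1h (4.47e-06) and 1.02 ± 0.19 (SE) for Ctsl (0.000144), by limma. Lamp2 differed by 0.41 ± 0.13 (SE) (0.0272), a call that was lost without cachectic replicate 1, 2 or 6 (adjusted p = 0.0605, 0.0627 and 0.0706, limma) and without non-cachectic replicate 1, 2, 4 or 5 (0.0631, 0.0518, 0.0565 and 0.0508). The calls of Atp6v1d and Atp6v1g1 at 6 weeks were lost without cachectic replicate 1 (adjusted p = 0.0712 and 0.124), and that of Atp6v1g1 also without cachectic replicate 4 (0.059) or non-cachectic replicate 5 (0.0501). Under median-ratio scaling both were lost at 6 weeks, with log2 0.17 (adjusted p = 0.685) for Atp6v1d and 0.23 (adjusted p = 0.632) for Atp6v1g1, against 0.32 and 0.38 without it. Ctss was not called against this group (log2 1.04 ± 0.40 (SE), adjusted p = 0.0773, limma), in which 1 mouse had 45.2 TPM. Every cachectic mouse was above every non-cachectic mouse for 9 genes at 6 weeks and 4 at 8 weeks, against 13.6% and 2.45% of all tested genes.

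Between non-cachectic and control mice 0 of 33 genes were called by limma at 4, 6 and 8 weeks, where 0% of all genes were higher or lower. At an unadjusted p under 0.05 there were 1 lower at 4 weeks (0.383% of all genes), 1 higher at 6 weeks (0.501%) and 0 at 8 weeks, and Dunn's test called 0. At 8 weeks their log2 differences lay between -0.10 and 0.12. At 2 weeks Ctsh was lower (4.42% of all genes were lower and 0.0147% higher). This count was 0 without the 4 libraries with the highest liver markers.

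The comparison of cachectic with control mice at 2 weeks depended on libraries that stand apart. Atp6v1d was higher, and 8 genes were lower: Atp6v1a, Ctsb, Ctsc, Ctsh, Ctso, Ctsz, Lamp2 and Scarb2. Of all genes, 1.41% were higher and 27.8% lower, and the median log2 fold change was -0.42 over all genes and -0.30 over the 33. After median-ratio scaling 6 of the 33 were higher and 0 lower (6.33% of all genes higher, 12.8% lower), and after quantile normalization 9 were higher and 0 lower (11.4% and 4.62%). The count was 0 without the 4 libraries with the fewest genes, 2 of which are cachectic mice at 2 weeks, and also 0 without the 4 with the highest liver markers, 3 of which are controls at 2 weeks. Between cachectic and non-cachectic mice 0 of the 33 genes were called by limma at 2 weeks (0 at an unadjusted p under 0.05) or 4 weeks (3, all higher, as were 3.70% of all genes), with 0 by Dunn's test; of all genes, 0% were called at 2 weeks, and 0.0295% were higher and 0% lower at 4 weeks.

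At 4 weeks 0 of 33 genes were called between cachectic and control mice by limma (0.0147% of all genes were higher and 0.00736% lower), 3 were higher at an unadjusted p under 0.05 (3.49% of all genes were) and Dunn's test called 0. A single mouse, cachectic replicate 2, had the highest value of its group for 19 of the 33 genes, with a Ctsl of 416 TPM, an Atp6v1h of 8.79 TPM, a Lamp2 of 53.5 TPM and a Cd63 of 278 TPM. The other 4 cachectic mice had 176 to 220.1 TPM of Ctsl and 4.31 to 5.30 TPM of Atp6v1h, against 152 to 179.7 and 4.33 to 4.81 TPM in controls. A change over time was tested as the difference between cachectic and control mice at a later week minus that at an earlier one. From 4 to 6, 4 to 8 and 6 to 8 weeks 0 of 33 genes were called by limma, as was 0% of all genes, and at an unadjusted p under 0.05 there were 3, 6 and 0, all higher (3.08%, 3.22% and 0.302% of all genes were higher at that p). A call at 6 or 8 weeks and none at 4 weeks is therefore not a tested difference between weeks.

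Lists of other lysosomal genes were counted over the same weeks, cachectic against control mice. Of 32 lysosomal enzymes and luminal proteins, most of them hydrolases but with Npc2, Psap, Gm2a and Hgsnat among them, 2 were higher at 6 weeks (Asah1 and Fuca1), where 5.62% of all genes were. At 8 weeks 2 were higher and 1 lower, where 6.65% of all genes were higher and 8.12% lower. Their median log2 fold change at 8 weeks was 0.058, against -0.094 for all genes. Npc2, which carries cholesterol out of lysosomes, rose by log2 0.51 ± 0.14 (SE) (adjusted p = 0.00969, limma) and Arsb, a sulfatase, fell (log2 -0.63 ± 0.21 (SE), adjusted p = 0.0335). Of 12 other membrane and transport proteins tested, 0 were called at 6 weeks and 1 was lower at 8 weeks, Ostm1, a partner of the chloride transporter Clcn7 (log2 -0.40 ± 0.10 (SE), adjusted p = 0.00432). Of 5 other V-ATPase subunits tested, 1 was lower at 8 weeks, Atp6v1c2, a form of subunit C (log2 -1.38 ± 0.48 (SE), adjusted p = 0.0432). Of 6 sorting genes, 1 was higher at 6 weeks (Gnptg) and 0 were called at 8 weeks, and of 9 genes of the Ragulator and Rag GTPases, 0 were called at 6 weeks and 1 was lower at 8 weeks. Of 3 cathepsin inhibitors tested, 0 were called by limma at either week, with 1 at an unadjusted p under 0.05 at each. Of 5 genes of the TFEB family and its regulators tested, 0 were called by limma and 0 had an unadjusted p under 0.05 at 6 or 8 weeks, with a median log2 fold change of 0.18 at 6 weeks and -0.20 at 8 weeks. At an unadjusted p under 0.05, 16.6% of all genes were higher and 3.51% lower at 6 weeks. At 8 weeks these shares were 10.6% and 16.4%.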

How the data were processed

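Diaphragm RNA from 62 mice was sequenced as paired ends on an Illumina NovaSeq. According to the methods, the authors used CLC Genomics Workbench to trim reads, to map what passed their filters to GRCm38, also named mm10, and to compute the deposited TPM of each gene. TPM keep no read depth, so the depth and its precision are unknown, and TPM depend on what else is abundant in a library, such as mitochondrial transcripts. The labels give a stranded TruSeq mRNA kit and the methods TruSeq RNA Sample Prep v2, and strand use in counting is not given in the sources used here. Reads of genes that overlap on opposite strands can therefore not be told apart.

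Genes that reached 1 TPM in 5 or more mice (13578 of 47643) were fitted as log2(TPM + 1) with limma 3.58.1 (R 4.3.3), 1 mean for each of the 12 conditions over all 62 mice, trended empirical Bayes moderation and two-sided tests. Benjamini-Hochberg adjustment ran over all tested genes, and calls are at an adjusted p under 0.05. A fold change on this scale understates the change of low genes. Groups came from the labels, each mouse is 1 replicate, and 0 pairs of libraries were identical. The 34 members were found by symbol alone, but the set and the other lists were proposed with earlier results of these data known. All 34 genes are accounted for, and those named with full values are the 8 genes with the smallest adjusted p against controls at 8 weeks, the 5 smallest at 6 weeks and a fixed set of core subunits, cathepsins and membrane proteins. Of the lists of other lysosomal genes, the 4 genes with the smallest adjusted p at 8 weeks are named. Others named in counts of 5 or fewer were chosen after their values were seen. Alternatives covered the pseudocount, the filter, scaling (median ratio, quantile, total without mitochondrial genes), array weights, a replicate block, Dunn's test, a fit on only the groups compared, and libraries left out. Promoters were read from RefSeq (GRCm38.p6), and gene positions from GENCODE (GRCm38).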

Additional observations from a re-analysis of the deposited data

Results flagged for a closer look

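Within 60 groups of 5 or 7 mice over 10 genes, 6 single values lay farther from their group than Dixon's 95% limit allows, and chance alone gives about 1 in 20. Ctsl in cachectic replicate 1 at 6 weeks was 548 TPM, with the next mouse at 303 TPM. Ctsl in non-cachectic replicate 2 at 6 weeks was 180.4 TPM, with the next at 163 TPM. Non-cachectic replicate 4 at 6 weeks had 61.5 TPM of Ctss (next 18.7 TPM) and 8.78 TPM of Ctso (next 7.11 TPM). Non-cachectic replicate 3 at 8 weeks had 5.57 TPM of Atp6v1h (next 4.27 TPM) and 198 TPM of Cd63 (next 157 TPM).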

How the results depend on the processing

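Alternatives for single genes were run for cachectic mice against both other groups at 6 and 8 weeks. Against controls at 8 weeks, Atp6v1h was called under all 12 alternatives, Cd63, Atp6v1d and Ctsl under 11, Atp6v1g1 under 10, Lamp2 under 9 and Ctss under 6. At 6 weeks Cd63, Atp6v1h, Ctsl, Lamp2 and Lgmn were called under 11, Ctsc under 8, Atp6v1d under 6 and Ctso under 5. TPM hold no depth, so no limit of detection can be given.

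Percentages in brackets are the shares of all tested genes called higher by the same fit. The number of members called against controls at 2 weeks (9) was 0 under array weights, Dunn's test, a fit on the compared groups, without the 4 libraries with the fewest genes, without the 4 with the highest liver markers, and under median-ratio scaling without the former 4 (an alternative chosen after seeing the data), each with 0% of all genes higher and 0% lower except under array weights (1.13% lower). At 4 weeks (0) it was 5 under array weights (6.64%) and 1 without the 4 libraries with the fewest genes, with either scaling (1.53% and 1.21%). At 6 weeks (8) it was 5 without mitochondrial genes (2.70%), 5 under quantile normalization (3.90%), 28 under array weights (42%), 0 under Dunn's test (0%), 17 on the compared groups (25%) and 21 without the few-gene libraries (27%). At 8 weeks (7) it was 17 under median-ratio scaling (10.6%), 11 under quantile normalization (10.9%), 19 under array weights (24.2%; 1 of the 19 was lower, as were 12% of all genes), 3 under Dunn's test (2.14%), 2 on the compared groups (1.86%), 20 without the few-gene libraries (22.3%) and 18 with median-ratio scaling added (19.3%).

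Against non-cachectic mice it was 5, 1 and 1 at 4 weeks (array weights, without few-gene libraries, and median-ratio scaling added, with 7.25%, 1.90% and 1.65% of all genes), 24, 0, 17 and 18 at 6 weeks (array weights, Dunn's test, compared groups, without few-gene libraries, with 32.3%, 0%, 19.2% and 22.1%), and 15, 12, 25, 1, 20 and 15 at 8 weeks (median-ratio, quantile, array weights, compared groups, without few-gene libraries, and median-ratio scaling added, with 9.24%, 10.1%, 32.3%, 1.37%, 23.2% and 17.6%). Between non-cachectic and control mice at 2 weeks (1) it was 2 with no filter, 0 under median-ratio scaling, quantile normalization, Dunn's test, compared groups and without liver-high libraries, 8 under array weights, and 3 without few-gene libraries with either scaling (12.6%, 4.93% and 5.32% of all genes were lower, and all these members were). The change from 4 to 8 weeks gave 6 under array weights, 1 without few-gene libraries and 4 with median-ratio scaling added (4.56%, 0.776% and 1.56%), and that from 4 to 6 weeks 16 and 1 (array weights, compared groups, with 14.1% and 0.0442%). Dunn's test was not run for changes between weeks. The few-gene libraries are all from 2 or 8 weeks, so leaving them out alone moved no log2 fold change between groups at 6 weeks. It changed the spread estimate that all conditions share. What else moved the counts was not tested.

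Leaving out 1 mouse gave 0 to 19 calls against controls at 2 weeks (0 without cachectic replicate 3, 19, of which 15 were lower, without cachectic replicate 2, where 54.2% of all genes were lower). At 4 weeks it gave 0 to 1, where at most 0.103% of all genes were higher. At 6 weeks it gave 6 to 8 (2.46% to 6.64% of all genes higher). At 8 weeks it gave 6 to 15 (4.88% to 12.6% higher, with 15 and 12.6% without cachectic replicate 3). Against non-cachectic mice it gave 0 to 1 at 2 weeks (at most 0.841% of all genes higher) and 0 to 0 at 4 weeks. At 6 weeks it gave 4 to 7 (1.79% to 5%), and at 8 weeks 5 to 16 (4.99% to 13.1%, with 16 and 13.1% without cachectic replicate 3). Between non-cachectic and control mice it gave 0 to 5 at 2 weeks, all lower (0.0222% to 6.57% of all genes lower), and 0 to 0 later. For changes from 4 to 8 weeks it gave 0 to 1 (at most 0.273% higher), and 0 to 0 otherwise. With the replicate number as a block, counts against controls were 7, 0, 7 and 5 at 2, 4, 6 and 8 weeks, against non-cachectic mice 0, 0, 6 and 6, and the block moved no count by over 1.5 times. Shares of all genes are not given for the block fits. Of 60 pairs of mice with the same number at the same week in 2 groups, 18 had deviations from their group means that correlated over 0.1 (median -0.032). For cachectic and control mice at 8 weeks, replicates 1 to 5 had 0.11, 0.14, 0.26, 0.11 and -0.032. Deviations within a group sum to 0, so these values cannot show whether mice with the same number shared a batch. The main fit treated the mice as unpaired.

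Directions of genes that were not called turned as follows. Atp6v1b2 at 8 weeks was 0.047 under median-ratio scaling, 0.0098 under quantile normalization, 0.13 under array weights, 0.097 without the few-gene libraries and without cachectic replicate 3, and 0.022 with both changes, and against non-cachectic mice 0.036, 0.0042, 0.19, 0.11 and 0.011 in the same order. Mcoln1 at 8 weeks was 0.0099, 0.18, 0.21 and 0.14 in that order from quantile normalization on, and 0.011, 0.24, 0.23 and 0.13 against non-cachectic mice. Leaving out 1 mouse at 8 weeks, Atp6v1b2 ranged over -0.11 to 0.097 against controls and -0.097 to 0.11 against non-cachectic mice, and Mcoln1 over -0.21 to 0.21 and -0.19 to 0.23. Atp6ap2 was -0.00015 without mitochondrial genes and Ctsd -0.015 under quantile normalization. Atp6v1a against non-cachectic mice at 6 weeks was -0.0082 under median-ratio scaling, -0.015 without mitochondrial genes, -0.029 under quantile normalization and -0.012 under median-ratio scaling without the few-gene libraries.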
